A study of Mus musculus with 6 samples.

Results

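The 10 genes described here, Rnf43, Znrf3, Lgr5, Axin2, Tbx3, Glul, Slc1a2, Oat, Rgn and Lect2, are mouse genes known to depend on Wnt signalling in the liver and, for most of them, to be expressed in hepatocytes around the central vein. They were chosen by symbol, and all 10 had a row among the 12027 genes of the deposited count table. Messenger RNA of whole liver came from C57BL/6 males aged 8 weeks that had undergone partial hepatectomy (PHX), a surgical resection that the liver makes good by growth. The 6 libraries were 1 each of OGT-KO (OGT-/y) and OGT control (OGTfl/y) at 28 days, OGA-KO (OGA-/-) and OGA control (OGAfl/fl) at 14 days, and the same genotypes of the OGA line at 28 days. For the OGT line, 14 days was not analysed here. OGT attaches the sugar O-GlcNAc to proteins and OGA removes it. The deletions were specific to hepatocytes per the series' design text, and the driver of the deletion is not given in the sources used here. Every library was made from the pooled RNA of 3 mice, so no group had replicate libraries, and p-values below rest on a spread shared across the series.

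In the liver, Wnt ligands and R-spondins from endothelial cells of the central vein act on nearby hepatocytes. They stabilise beta-catenin, which enters the nucleus and activates genes together with TCF/LEF factors. Some of these genes feed back on the pathway: Rnf43 and Znrf3 encode ubiquitin ligases that remove Wnt receptors from the cell surface, Lgr5 a receptor for R-spondins that counters these ligases, and Axin2 a scaffold of the complex that degrades beta-catenin. Others carry out pericentral metabolism: Glul encodes glutamine synthetase, Slc1a2 a glutamate transporter, Oat the ornithine aminotransferase of mitochondria and Rgn regucalcin, a lactonase of vitamin C synthesis. Tbx3 encodes a transcription factor and Lect2 a secreted protein.

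Library totals ranged from 20433100 to 29327722 counts. Levels are given as CPM, counts scaled to a common library size with TMM factors, which correct for differences in RNA composition, and ratios as the log2 of knockout over control on that scale. Ranges in parentheses after a ratio are 95% counting intervals, which cover counting error alone. The adjusted p-values come from an edgeR quasi-likelihood fit over all genes and libraries, whose single residual degree of freedom came from the OGA line, so that the lone OGT pools were taken to scatter as much. "Rose" and "fell" are kept for genes with an adjusted p under 0.05 in that fit. Oga itself had 10.4 CPM in OGA-KO and 62.2 CPM in OGA control at 14 days, and 12.8 CPM in OGA-KO and 67.2 CPM in OGA control at 28 days. Ogt had 43.2 CPM in OGT-KO and 58.0 CPM in OGT control; reads outside a deleted part, or from other cells, stay in such a count. With library totals in place of TMM, the median over all genes shifted on the log2 scale by 0.37 in the OGT pair and by -0.01 in the OGA pair at 28 days. The shift in the OGT pair covers most of the Ogt gap there, which thus depends on the scaling.

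The OGT pair asks how liver without hepatocyte OGT differed from control 28 days after surgery. The metabolic genes were far lower in OGT-KO, and the feedback genes differed less or not detectably. In whole liver, fewer pericentral hepatocytes and less RNA of these genes per cell cannot be told apart. Of the 10 genes, 8 fell and none rose, where 26.6% of all 12027 genes tested fell and 26.1% rose, 52.6% in all. The DESeq2 Wald test called 6 of the 10 lower, against 14.3% of genes, and none higher, against 10.3%. At least a 2-fold lower level, with 1 CPM or more in the higher library, was seen for 6 of 10 genes, against 11.7% of genes, and such a higher level for none, against 16.4%. By library totals 4 of the 10 were at least 2-fold lower (Glul, Slc1a2, Oat and Rgn), against 7.01% of genes. The median log2 ratio of the 10 genes was -1.19, and that of all genes 0.00. When the term for the mouse line was left out of the fit, so that both controls at 28 days shared a mean, 4 genes fell (Tbx3, Glul, Slc1a2 and Rgn), against 11.8% of all genes, and none rose, against 13.4%.

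**Figure D1:**
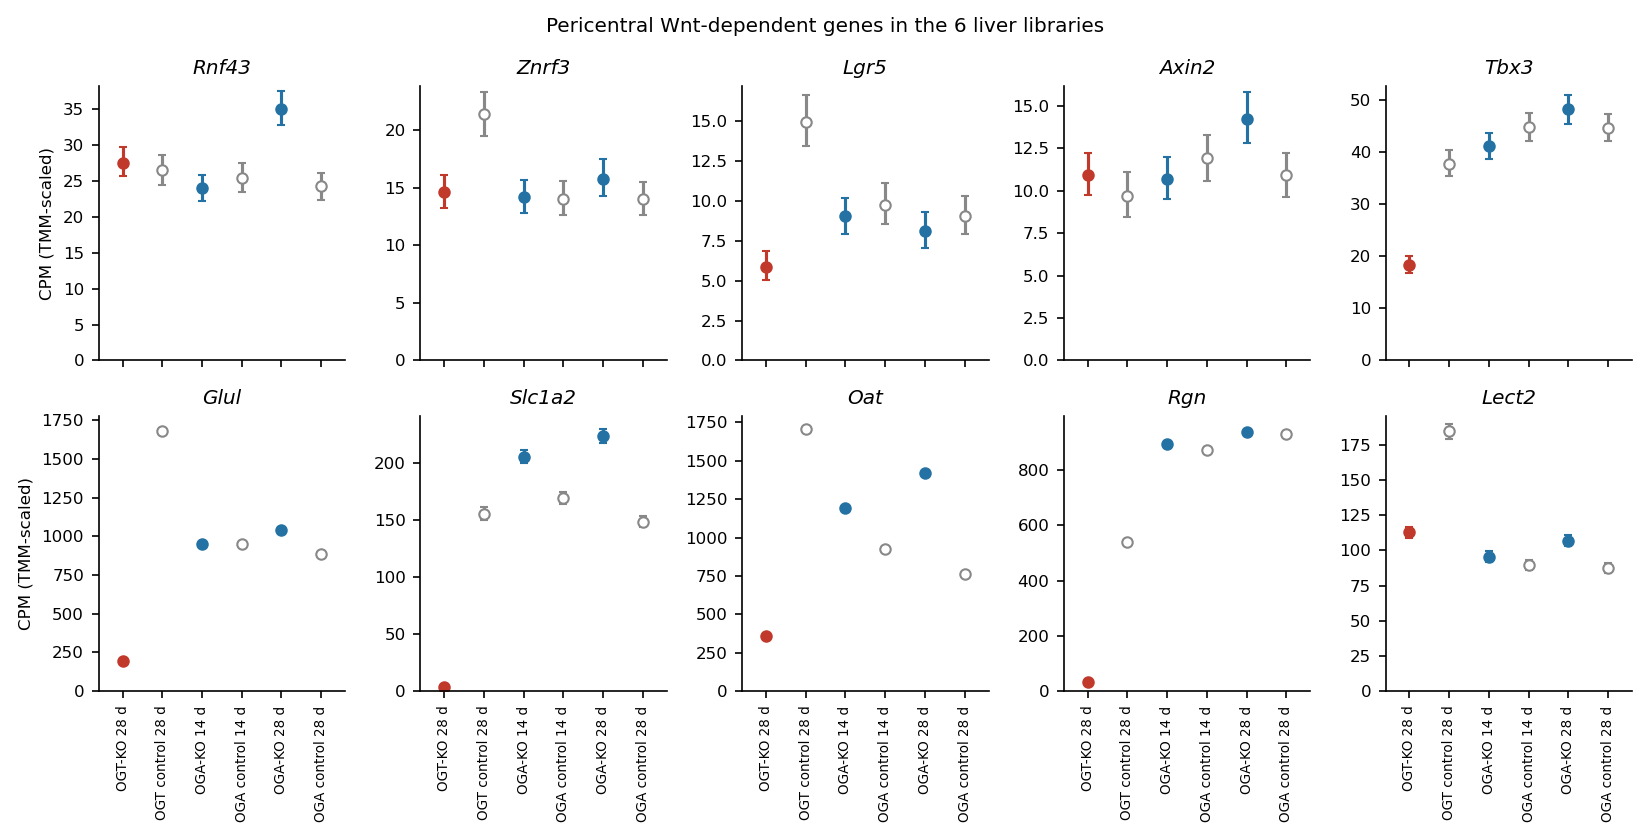
Level of each gene in the 6 libraries, in CPM on TMM-scaled library sizes, each axis starting at 0; filled points are knockout and open points control libraries, and bars are 95% counting intervals of 1 library each. Slc1a2, Rgn, Glul, Oat, Tbx3 and Lgr5 have their lowest level in OGT-KO, while Axin2, Rnf43, Znrf3 and Lect2 in OGT-KO lie within the range of the other libraries.

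Slc1a2, the glutamate transporter, had 3.22 CPM (90 counts) in OGT-KO and 155.5 CPM (3589 counts) in OGT control. Its other libraries had 205.3 CPM in OGA-KO and 168.8 CPM in OGA control at 14 days, and 222.7 CPM in OGA-KO and 148.5 CPM in OGA control at 28 days. OGT-KO thus stood alone at the low end, with a log2 ratio of -5.56 (-5.91 to -5.29). The fitted effect of OGT-KO on Slc1a2 was -5.59 ± 0.18 (SE; edgeR adjusted p = 9.77e-05). A second fit without a term for the mouse line gave 0.00843.

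Rgn had 31.6 CPM in OGT-KO and 539.7 CPM in OGT control. The OGA line had more of it, with 895.4 CPM in OGA-KO and 874.4 CPM in OGA control at 14 days and 937.1 CPM in OGA-KO and 930.7 CPM in OGA control at 28 days. Rgn was lowest in OGT-KO, at a log2 ratio of -4.09 (-4.20 to -4.00; edgeR adjusted p = 8.3e-05, or 0.011 with the line term dropped). Regucalcin mRNA also differed between the controls at 28 days, by a log2 of -0.79 (-0.82 to -0.75) for OGT control over OGA control, a smaller step in the same direction.

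Glul, which makes glutamine from glutamate and ammonia, had 192.5 CPM in OGT-KO and 1683 CPM in OGT control. In the OGA line Glul had 950.2 CPM in OGA-KO and 951.7 CPM in OGA control at 14 days, and 1040 CPM in OGA-KO and 883.1 CPM in OGA control at 28 days. OGT-KO was the lowest of the 6 libraries and OGT control the highest, and the log2 ratio was -3.13 (-3.17 to -3.09; edgeR adjusted p = 0.000131, or 0.026 with the line term dropped). The next library above OGT-KO, OGA control at 28 days, was higher by a log2 of 2.20 (2.15 to 2.24).

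Oat had 355.8 CPM in OGT-KO and 1707 CPM in OGT control, a log2 ratio of -2.26 (-2.29 to -2.23; edgeR adjusted p = 0.000706). The OGT control level of Oat lay above that of OGA control at 28 days by a log2 of 1.16 (1.14 to 1.18). Without the line term the effect was -1.77 with an edgeR adjusted p of 0.0807. Even so, OGT-KO was below each of the other libraries, the nearest of which, OGA control at 28 days, had 763.6 CPM.

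Tbx3, the transcription factor, had 18.4 CPM in OGT-KO and 37.8 CPM in OGT control, while the 4 OGA libraries lay between 41.1 and 48.2 CPM. It fell by about the fold threshold, at a log2 ratio of -1.04 (-1.20 to -0.88; edgeR adjusted p = 0.00199, or 0.0237 with the line term dropped), and by library totals its log2 ratio was -0.67. Lgr5 had 5.87 CPM in OGT-KO and 14.9 CPM in OGT control, with the OGA libraries between 8.09 and 9.75 CPM. Its log2 ratio was -1.33 (-1.62 to -1.07; edgeR adjusted p = 0.00195), or -0.97 by library totals. The Lgr5 call was lost without the line term (adjusted p = 0.138) and in DESeq2 (0.057). OGT control stood above each OGA library and OGT-KO below each of them.

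The remaining 4 genes had OGT-KO levels inside the range of the other libraries. Axin2 had 10.9 CPM in OGT-KO and 9.70 CPM in OGT control, with 10.7 to 14.2 CPM in the OGA libraries. Rnf43 had 27.6 CPM in OGT-KO and 26.6 CPM in OGT control, with 24.0 to 35.1 CPM in the OGA libraries. Neither passed the test: the log2 ratio was 0.17 (-0.08 to 0.43; edgeR adjusted p = 0.56) for Axin2 and 0.06 (-0.10 to 0.21; edgeR adjusted p = 0.844) for Rnf43. By library totals these ratios were 0.54 for Axin2 and 0.43 for Rnf43, again without a call (edgeR adjusted p = 0.0926 and 0.144).

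Znrf3 had 14.6 CPM in OGT-KO and 21.4 CPM in OGT control, but 14.0 to 15.8 CPM in the OGA libraries. Znrf3 fell (log2 -0.55, -0.74 to -0.36, edgeR adjusted p = 0.0257), with OGT control above the OGA libraries and OGT-KO among them. With 1 pool per group, a difference between the lines and one between pools cannot be told apart. The Znrf3 call was lost in edgeR without the line term (adjusted p = 0.581) and by library totals (0.336), and in DESeq2 (0.428). Lect2 had 113.0 CPM in OGT-KO and 184.6 CPM in OGT control, against 87.6 to 106.8 CPM in the OGA libraries, all of them below OGT-KO. The Lect2 ratio was -0.71 (-0.77 to -0.64; edgeR adjusted p = 0.00479), with no call without the line term (0.775) or by library totals (0.0502). OGT control also exceeded OGA control at 28 days for both genes, by a log2 of 0.61 for Znrf3 and 1.07 for Lect2. At least 2-fold between these control pools were 2 of the 10 genes, Oat and Lect2, both higher in OGT control, where 4.72% of genes were higher and 5.72% lower. Between the OGA controls at 28 and 14 days none was, against 0.519% of genes higher and 0.408% lower.

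**Figure D2:**
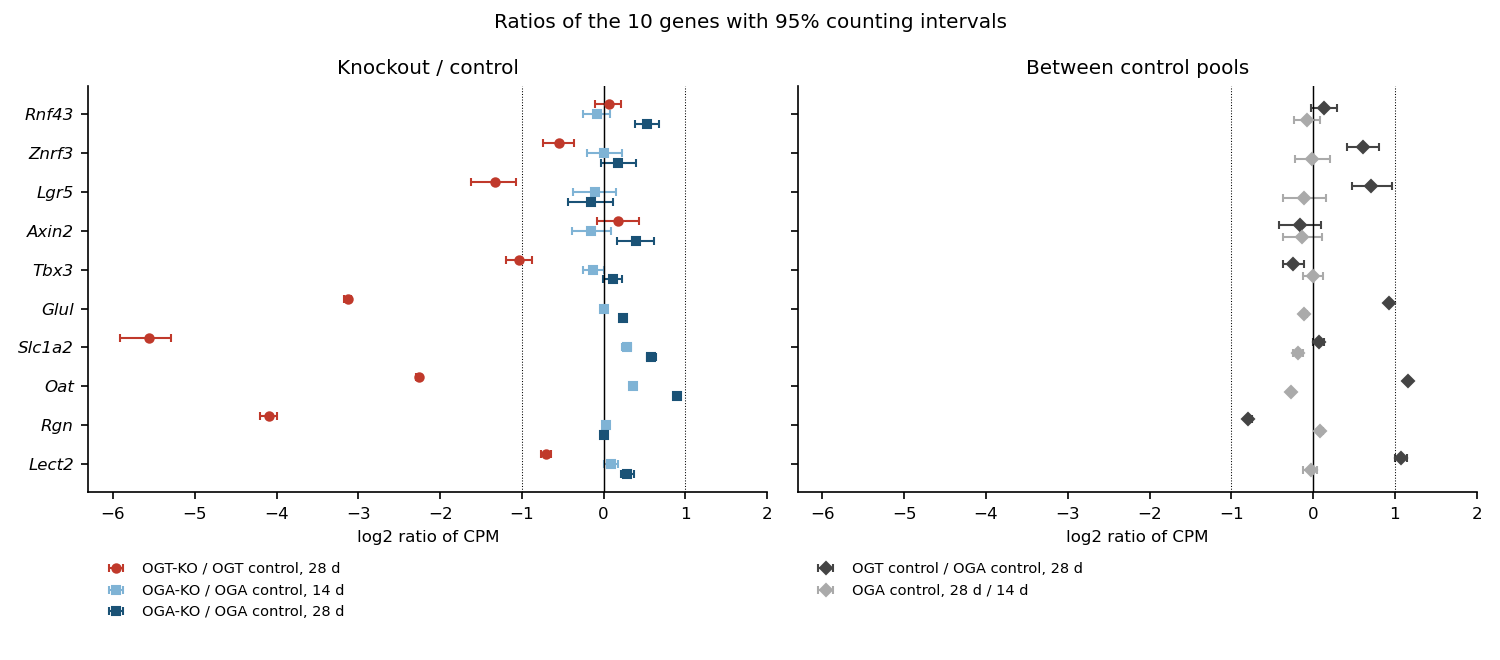
Log2 ratios of CPM for each gene, with 95% counting intervals; the left panel shows the 3 knockout over control pairs and the right panel the ratios between control pools, and dotted lines mark 2-fold. In the OGT pair the ratios run from -5.56 for Slc1a2 to 0.17 for Axin2, while in the OGA pairs they stay between -0.16 and 0.90 and between the controls of both lines at 28 days between -0.79 and 1.16.

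The sequences before some of these genes can be set beside their levels. RefSeq promoter windows (GRCm38.p6, 250 bases before to 50 after a start site) were held for 6 of the 10 genes in 7 windows: Rnf43 with 2 windows, and Axin2, Glul, Slc1a2, Oat and Lect2 with 1 each. Tbx3, Rgn, Znrf3 and Lgr5 had no entry. The windows were searched on both strands for words of TCF/LEF factors, namely CTTTGAT with its variants CTTTGAA or CTTTGTT as well as CTTTGTA, and for a word of the receptor HNF4A, namely CAAAGTC, and any hit is in capitals below. Slc1a2 and Lect2 are shown as the windows with a hit, Glul as an abundant gene that fell without one (so did Oat), and Axin2 as a feedback gene that did not pass the test (nor did Rnf43).
Slc1a2 (chr2:102706188-102706487, plus strand): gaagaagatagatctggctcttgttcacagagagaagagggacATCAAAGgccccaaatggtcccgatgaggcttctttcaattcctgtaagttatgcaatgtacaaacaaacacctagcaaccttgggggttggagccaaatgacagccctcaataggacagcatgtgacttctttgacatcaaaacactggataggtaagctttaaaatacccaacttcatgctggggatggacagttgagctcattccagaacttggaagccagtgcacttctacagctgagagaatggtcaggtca
Lect2 (chr13:56548489-56548788, minus strand): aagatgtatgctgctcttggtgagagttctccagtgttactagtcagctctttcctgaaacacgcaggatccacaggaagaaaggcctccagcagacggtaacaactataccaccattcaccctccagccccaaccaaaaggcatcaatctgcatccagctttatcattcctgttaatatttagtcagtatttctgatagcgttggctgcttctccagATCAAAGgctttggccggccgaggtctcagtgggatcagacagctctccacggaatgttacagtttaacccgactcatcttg
Glul (chr1:153899679-153899978, plus strand): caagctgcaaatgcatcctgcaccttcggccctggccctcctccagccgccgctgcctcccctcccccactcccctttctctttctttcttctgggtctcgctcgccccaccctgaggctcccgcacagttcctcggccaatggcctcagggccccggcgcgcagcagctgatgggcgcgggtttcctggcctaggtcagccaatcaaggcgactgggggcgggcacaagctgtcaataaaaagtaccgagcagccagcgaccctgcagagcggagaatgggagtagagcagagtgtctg
Axin2 (chr11:108920099-108920398, plus strand): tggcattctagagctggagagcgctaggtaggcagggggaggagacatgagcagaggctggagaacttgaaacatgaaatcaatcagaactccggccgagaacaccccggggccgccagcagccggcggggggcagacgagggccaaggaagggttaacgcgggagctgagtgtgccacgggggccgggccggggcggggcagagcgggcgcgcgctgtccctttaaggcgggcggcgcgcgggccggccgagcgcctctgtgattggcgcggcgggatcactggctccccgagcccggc
The word CTTTGAT lay once in the Slc1a2 window, on the strand opposite to the gene at positions -207 to -201 from the start site, and once in the Lect2 window, also on the opposite strand, at -32 to -26. Neither overlapped an HNF4A word, of which the 7 windows held none. Among all 32851 windows of the same length, 16.9% held at least 1 of the TCF/LEF words, 3.73% held CTTTGAT and 4.44% held CAAAGTC. These are matches of letters in short windows: Slc1a2 was the lowest ratio of the 10 genes in OGT-KO, and Lect2 was among the smaller ones.

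Other pericentral genes were lower in OGT-KO as a list. Of 24 listed, 21 fell and none rose, with a median log2 ratio of -1.91, where 26.6% of all genes fell and 26.1% rose. Without the line term 10 fell and none rose, where 11.8% of all genes fell and 13.4% rose. By library totals 18 fell and 3 rose (Slc13a3, Aldh3a2 and Por), where 15.5% of all genes fell and 44.4% rose. Cyp1a2, a P450 enzyme of drug oxidation, had 19.4 CPM in OGT-KO and 1035 CPM in OGT control (log2 -5.73, edgeR adjusted p = 8.38e-05), and Cyp2c29 had 44.6 CPM in OGT-KO and 1328 CPM in OGT control (-4.89), although near-identical Cyp2c copies make it uncertain as a single gene. Avpr1a, a vasopressin receptor (-4.20), and Cyp2e1, the ethanol-oxidising P450 (-3.72), fell as well. Of 22 periportal genes 11 fell and 5 rose (median -0.40, or -0.03 by library totals), and 4 fell and 1 rose without the line term. Pigr, the transporter of polymeric immunoglobulins (-4.69), Cyp2f2 (-4.54) and Otc, the ornithine carbamoyltransferase of the urea cycle (-2.15), fell, so periportal genes held large decreases too. Hsd17b6 had 30.6 CPM in OGT-KO and 9.23 CPM in OGT control (log2 1.72, edgeR adjusted p = 0.000943), and its effect turned to -1.91 with an adjusted p of 0.458 without the line term. Of 5 mid-lobular genes Cyp8b1 (-4.70) and Mup3 (-3.94) fell and Igfbp2 (0.97) rose, while Hamp, the gene of hepcidin, stood at 0.61 without a call; Mup3 (adjusted p = 0.0592) and Igfbp2 (0.344) were not called without the line term, and Mup copies are near-identical.

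Genes around the enzymes encoded by Glul and Oat differed in both directions. Of 17 genes of glutamine and ammonia handling 9 fell and 3 rose (4 and 2 without the line term), with a median of -0.64. Of all genes 26.6% fell and 26.1% rose, or 11.8% and 13.4% without the line term. Car5a, the carbonic anhydrase that supplies bicarbonate to the urea cycle, had 1.65 CPM in OGT-KO and 77.9 CPM in OGT control (log2 -5.50, edgeR adjusted p = 8.3e-05). Rhbg, an ammonium transporter, had 10 counts in OGT-KO and 112 counts in OGT control (-3.50, -4.86 to -2.83; edgeR adjusted p = 0.00172, or 0.0526 with the line term dropped), and Prodh, the proline oxidase, stood at -2.62.

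Other genes known to be induced by Wnt signals were split. Of 8 measured, 2 rose and 2 fell, with a median of 0.20. These shares were near those of all genes, of which 26.1% rose and 26.6% fell. Notum, a secreted enzyme that inactivates Wnt ligands, had 1.83 CPM in OGT-KO and 15.6 CPM in OGT control (log2 -3.04, -3.55 to -2.67; edgeR adjusted p = 0.000425), while the OGA libraries had 48.3 to 62.1 CPM. Sp5, a transcription factor induced by Wnt, had 0.752 CPM in OGT-KO and 5.03 CPM in OGT control (-2.62, edgeR adjusted p = 0.00195, or 0.074 with the line term dropped). Cd44, the hyaluronan receptor, had 74.6 CPM in OGT-KO and 8.75 CPM in OGT control (3.08, edgeR adjusted p = 0.000173), and Ccnd1, which encodes cyclin D1, stood at 2.17 (adjusted p = 0.0103, and 0.0562 in DESeq2). Both also respond to other signals and are expressed by other cells.

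Some genes listed as Wnt ligands or antagonists rose in OGT-KO, at low levels. Of 11 genes of Wnt ligands and secretion 5 rose and 1 fell (median 1.07), or 3 and 1 without the line term, and in DESeq2 only Wls rose and none fell. Of all genes 26.1% rose and 26.6% fell, or 13.4% and 11.8% without the line term. By library totals 5 of the 11 rose (45.5%), a share near the 44.4% of all genes that did. Wls, which carries Wnt proteins to the cell surface, had 20.7 CPM in OGT-KO and 3.16 CPM in OGT control (log2 2.68, 2.36 to 3.08; edgeR adjusted p = 0.000481). Wnt4 had 10.8 CPM in OGT-KO and 2.90 CPM in OGT control (1.87, adjusted p = 0.00432), Wnt5a stood at 2.01 (adjusted p = 0.0129, or 0.0544 with the line term dropped) and Wnt2b at -1.90 from 14 counts in OGT-KO and 48 in OGT control. The 3 ligands of the central vein are added here after their values were seen. Rspo3 had 301 counts in OGT-KO and 89 counts in OGT control (1.46, edgeR adjusted p = 0.00341, or 0.0196 with the line term dropped), Wnt9b 102 in OGT-KO and 29 in OGT control (1.48, adjusted p = 0.0233, or 0.361 with the line term dropped), and Wnt2 51 in OGT-KO and 67 in OGT control (-0.65, adjusted p = 0.195). In DESeq2 the adjusted p was 0.143 for Rspo3, 0.108 for Wnt4, 0.144 for Wnt5a, 0.255 for Wnt2b and 0.336 for Wnt9b. Counts of the central vein ligands were thus low and lay on both sides of the control.

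Of 4 measured antagonists Dkk3 and Frzb rose, and Dact1 (log2 0.78) and Kremen1 (-0.21) were not called. Dkk3 had 22.3 CPM in OGT-KO and 1.56 CPM in OGT control (log2 3.78, edgeR adjusted p = 0.000309), and Frzb, a secreted Wnt-binding protein, had 17.5 CPM in OGT-KO and 1.56 CPM in OGT control (3.43, adjusted p = 0.000482). Among 14 receptors and Dishevelled genes 4 rose and 5 fell (median 0.12), where 26.1% of all genes rose and 26.6% fell. In DESeq2 1 of them rose and 3 fell. Fzd8, a Wnt receptor, had 105 counts in OGT-KO and 462 counts in OGT control (log2 -2.39), against 1.59 for Fzd1, 1.32 for Fzd6 and 1.30 for Ror1, the last not called without the line term (adjusted p = 0.0842).

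Ratios in the core of the pathway were mostly small. Among 11 genes of the destruction complex 5 rose and none fell (median 0.13), led by the kinase gene Csnk1e with 28.3 CPM in OGT-KO and 9.05 CPM in OGT control (log2 1.64). In the main fit 26.1% of all genes rose and 26.6% fell. Csnk1e was the single call without the line term and in DESeq2, while Tnks (0.63), Amer1 (0.62) and Csnk1d (0.53) were then lost. That was 9.09% of the list, where 13.4% of all genes rose without the line term and 10.3% in DESeq2. By library totals 7 of the 11 destruction complex genes rose (63.6%), against 44.4% of all genes. Among 11 genes of beta-catenin and its nuclear partners 3 fell and none rose (median -0.08), where 26.6% of all genes fell and 26.1% rose. Ctnnbip1, an inhibitor of beta-catenin (-0.75), and Aes (-0.45) were among those that fell, while Tcf7l1 (0.63) and Bcl9 (0.45) were not called. By library totals 4 rose and none fell, where 44.4% of all genes rose and 15.5% fell. Without the line term none changed, and in DESeq2 1 fell. Ctnnb1, the gene of beta-catenin, chosen after its values were seen, had 7736 counts in OGT-KO and 5859 in OGT control (0.13, 0.08 to 0.18; edgeR adjusted p = 0.345).

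**Figure D3:**
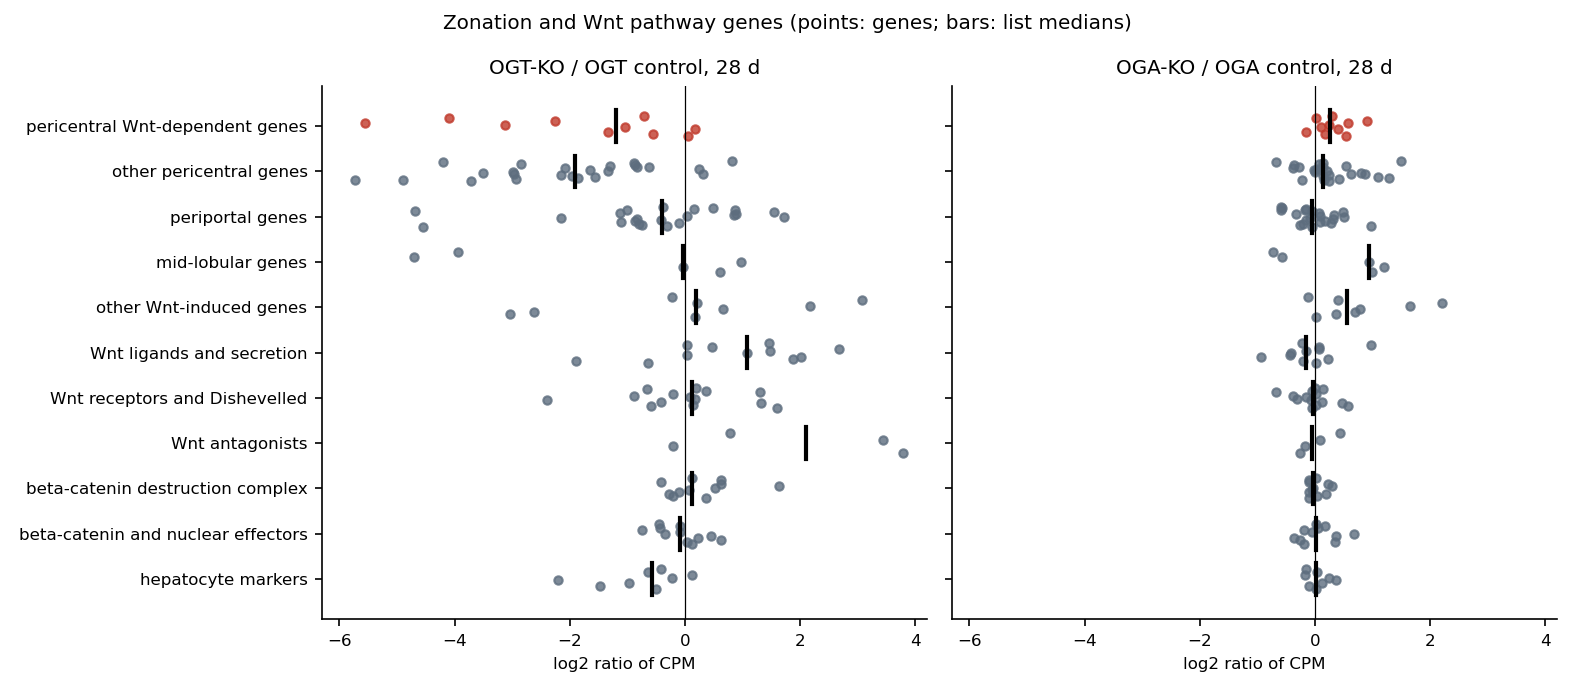
Log2 ratios of CPM in the OGT pair (left) and the OGA pair at 28 days (right) for each measured gene of the listed groups; points are genes, red for the 10 genes described here, and black bars are list medians. In the OGT pair the medians are lowest for the other pericentral genes (-1.91) and the 10 genes (-1.19) and highest for Wnt antagonists (2.10), and in the OGA pair they lie between -0.15 and 0.93.

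Markers of other cells moved in the same library. The summed level of 8 hepatocyte markers was 68200 CPM in OGT-KO and 90500 CPM in OGT control, with a median log2 ratio of -0.58 and -2.21 as the lowest; 6 of 8 fell. Stellate cell and matrix markers summed to 2340 CPM in OGT-KO and 279 CPM in OGT control (9 of 9 rose), macrophage markers to 852 CPM in OGT-KO and 238 CPM in OGT control (7 of 7 rose), and cholangiocyte markers to 386 CPM in OGT-KO and 62.5 CPM in OGT control (5 of 5 rose). The 2 measured fetal liver genes, Afp and Gpc3, summed to 4990 CPM in OGT-KO and 4.46 CPM in OGT control, and 4 genes of dividing cells to 123 CPM in OGT-KO and 12.6 CPM in OGT control. The 12 endothelial markers summed to 178 CPM in OGT-KO and 168 CPM in OGT control, with 4 rising and 3 falling, or 2 and none in DESeq2. Over all genes 26.1% rose and 26.6% fell in edgeR, near the endothelial shares of 33.3% and 25%. In DESeq2 10.3% of all genes rose and 14.3% fell. None of these markers was at 0 in either library. The ratios of Slc1a2, Rgn and Glul lay below that of each hepatocyte marker, and that of Oat (-2.26, -2.29 to -2.23) was near the lowest of them, Cebpa (-2.21, -2.26 to -2.16). The part of cell composition in the ratios of the 10 genes was not tested.

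The OGA pairs ask the same of liver without the enzyme that removes O-GlcNAc. None of the 10 genes passed edgeR for OGA-KO over both times, where 4 of 12027 genes did (0.0333%; 0.0249% rose and 0.00831% fell); 2 had an unadjusted p under 0.05 (Oat and Slc1a2), as did 13% of all genes, and DESeq2 called 1 (Oat, log2 0.64, adjusted p = 0.00382), where it called 0.34% of genes higher. None reached 2-fold at 14 days, where 0.839% of genes did (0.534% higher and 0.305% lower), or at 28 days, where 2.57% did (1.7% higher and 0.869% lower). The median log2 ratio of the 10 genes was 0.00 at 14 days and 0.26 at 28 days, and that of all genes was 0.00 at both.

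Oat had 1188 CPM in OGA-KO and 923.6 CPM in OGA control at 14 days, and 1422 CPM in OGA-KO and 763.6 CPM in OGA control at 28 days. Both OGA-KO libraries lay above both OGA controls, with log2 ratios of 0.36 (0.34 to 0.39) and 0.90 (0.87 to 0.92), and the edgeR effect was 0.63 ± 0.13 (SE) with an adjusted p of 0.259. Slc1a2 had the same order of libraries, with log2 ratios of 0.28 (0.22 to 0.34) at 14 days and 0.58 (0.53 to 0.64) at 28 days and an edgeR effect of 0.43 ± 0.10 (SE, adjusted p = 0.264). The OGA controls themselves differed between 28 and 14 days by a log2 of -0.27 for Oat and -0.19 for Slc1a2, smaller steps than those between knockout and control. OGT control over OGA control at 28 days stood at 1.16 for Oat, more than either OGA-KO step, and at 0.07 for Slc1a2. With 1 pool per group, an effect of the deletion and a difference between pools cannot be told apart.

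At 28 days the counting interval lay above 0 for 6 of the 10 genes (Rnf43, Axin2, Glul, Slc1a2, Oat and Lect2) and below 0 for none, where it lay above 0 for 22% of all genes and below it for 20%. Rnf43 had 35.1 CPM in OGA-KO and 24.3 CPM in OGA control (log2 0.53, 0.38 to 0.68), the highest level of the 6 libraries. Axin2, at 14.2 CPM in OGA-KO and 10.8 CPM in OGA control (0.39, 0.16 to 0.62), was also at its highest there. At 14 days neither differed beyond counting error, with ratios of -0.08 for Rnf43 and -0.15 for Axin2. Glul stood at 0.00 at 14 days and 0.24 (0.21 to 0.26) at 28 days, and Lect2 at 0.09 and 0.29. Rgn differed by 0.03 or less at both times, Tbx3 by -0.13 and 0.11, Znrf3 by 0.01 and 0.18, and Lgr5 by -0.11 and -0.16, the last with intervals that held 0 at both times.

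The OGA-KO library at 28 days stood apart in pancreatic transcripts and differed from its control in clock genes. It held 170 CPM of 10 pancreatic enzyme transcripts, against 0.287 to 0.666 CPM in the other 5 libraries, and 156.4 CPM of the clock output gene Dbp, against 17.7 CPM in OGA control at 28 days. Dbp also differed at 14 days, with 15.2 CPM in OGA-KO and 6.37 CPM in OGA control. The part of pancreatic or clock genes in the ratios at 28 days was not tested for either line. The Oat and Slc1a2 ratios at 14 days came from libraries that each had 9 of the 10 pancreatic genes at 0. None of the Wnt pathway and zonation genes passed edgeR for OGA-KO. The medians of these lists ran from -0.08 to 0.22 at 14 days and from -0.15 to 0.93 at 28 days, when mid-lobular genes (0.93) and other Wnt-induced genes (0.55) had the highest. Among the largest ratios at 28 days were Myc (2.20), Ccnd1 (1.64), Por, the reductase that serves P450 enzymes (1.49), and Cyp2a5 (1.29). At 14 days the largest belonged to ligand genes with low counts, Wnt9a at -1.29 (10 counts in OGA-KO and 25 in OGA control) and Wnt4 at 0.86 (70 counts in OGA-KO and 34 in OGA control). Other pericentral genes reached 0.50 for Lhpp and 0.47 for Nr1i3, the receptor CAR.

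The effects of the deletions were compared in the same fit, as the OGT-KO effect minus the OGA-KO effect. The OGT-KO effect came from the later time only, while the OGA-KO effect was averaged over both times. The deletions were also in different mouse lines, without replicate pools. The part of time or line in the difference was not tested. The OGT-KO effect lay below the OGA-KO effect for 8 of the 10 genes, where it did so for 22.7% of all genes and differed either way for 44.1%. The difference was -6.02 ± 0.20 (SE) for Slc1a2 (edgeR adjusted p = 0.000177), -4.12 ± 0.12 for Rgn (0.000158), -3.25 ± 0.15 for Glul (0.00031) and -2.89 ± 0.24 for Oat (0.000982). It was smaller for Lgr5 (-1.21, adjusted p = 0.00733), Tbx3 (-1.03, 0.00523), Lect2 (-0.90, 0.00589) and Znrf3 (-0.64, 0.0354), and it was not detectable for Rnf43 (-0.17 ± 0.27, 0.643) and Axin2 (0.04 ± 0.28, 0.914). Without the line term the calls of Tbx3, Glul, Slc1a2 and Rgn held (4 of 10 genes, where 11.4% of all genes were lower and 11.6% higher), and those of Znrf3, Lgr5, Oat and Lect2 did not.

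The genes most like Glul and Axin2 over the 3 ratios were sought among 9160 genes with at least 10 CPM in 1 library, by Euclidean distance of the log2 ratios. Nearest to Glul (-3.13, 0.00 and 0.24 in the OGT pair, the OGA pair at 14 days and the OGA pair at 28 days) were, among others, Wfdc21, Npr2, Pecr and Notum, at distances of 0.11 to 0.15. Notum stood at -3.04, -0.01 and 0.36 in that order. Nearest to Axin2 (0.17, -0.15 and 0.39) were Surf6, Srebf1, Ndufb4, Tti2 and Nop58, at distances of 0.07 to 0.10. Likeness over 3 ratios is a coarse measure.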

How the data were processed

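The deposited tables held raw counts per Ensembl gene and CPM; per the labels, each library pooled 3 mice and ran in 2 lanes. STAR, Subread and edgeR are named in the submitters' processing notes, with the build mm39; versions are not given in the sources used here. The CPM deposited by the authors carried no composition factor and was used only to check the counts. Every ratio was computed from the deposited counts. GENCODE M21 gave symbols to 12019 of 12027 identifiers; Oga and Tle5 stand there as Mgea5 and Aes. Levels used TMM sizes (edgeR 4.0.16, R 4.3.3), and ratios a prior count of 2 with exact Clopper-Pearson conditional binomial intervals at 95%. The sources used here mention no molecular identifiers, and intervals cover counting error only. The quasi-likelihood fit had 5 coefficients (a baseline, the mouse line, the day and each deletion), with 1 residual degree of freedom and Benjamini-Hochberg adjustment over 12027 genes after filterByExpr. Its SE is the effect over the square root of the F statistic. With 1 pool per group, p-values of the main fit rest on how far the OGA-KO effect differed between days. No spread within a group was measured. DESeq2 1.42.0 was an alternative. The main edgeR effects of each deletion, the fold rule in the OGT pair and the counting intervals were tested on simulated data. The contrast of the deletions, the alternative fits, the likeness search and the promoter search were not. From each pathway list, the genes named were the 4 largest ratios of the OGT pair and examples of the 2 largest of each OGA pair; others are said to be chosen later. Some genes that these rules select are not reported here. Members and lists were chosen with earlier results of these data known, as were the pancreatic and clock genes. Promoter windows were of another build than the counts and served for letters only.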

Additional observations from a re-analysis of the deposited data

How the results depend on the processing

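No paired analysis was possible because each group had 1 library and the labels give no replicate numbers; the day term of the fit sets OGA-KO against OGA control within each time. The counts of genes that fell in OGT-KO, and that lay lower in OGT-KO than in OGA-KO, were 4 and 4 without the line term, against 8 and 8. For OGA-KO, 1 gene (Oat) rose in DESeq2. The OGA libraries were also left out 1 at a time, with no day term. When OGA-KO at 14 days was left out, the Oat effect was a log2 of 0.75. The only knockout pool of the OGA line in that fit was the one that held pancreatic transcripts and a high level of Dbp. By a 1.5-fold rule Oat was also 1 gene higher in OGA-KO at 28 days, as were 5% of all genes. The cause was not tested. Signs turned only for effects without a call. For OGA-KO without the line term these were Znrf3 (-0.09), Tbx3 (0.07), Glul (-0.17) and Lect2 (-0.16). With 1 library left out they were Tbx3 (0.11), Rgn (-0.02 and -0.01), Rnf43 (-0.05) and Axin2 (-0.08). For OGT-KO minus OGA-KO they were Rnf43 (0.21 by library totals, 0.11 with a library left out) and Axin2 (-0.22 without the line term, -0.15 and -0.03 with a library left out). Without OGA control at 14 days, OGA-KO at 28 days or OGA control at 28 days, the difference for Znrf3 missed the threshold (edgeR adjusted p = 0.0727, 0.0588 and 0.0736), as it did by library totals (0.258), and in DESeq2 so did those for Znrf3 (adjusted p = 0.505) and Lgr5 (0.239). The Znrf3 difference was called in 5 of 11 settings. Called genes over the whole table numbered 6332 for OGT-KO, 3035 without the line term and 2902 in DESeq2, and for the difference 5301, 2767 and 2066 in the same settings; for OGA-KO they ranged from 0 to 317, the last without OGA-KO at 14 days. By library totals 77.3% of the genes past 2-fold in the OGT pair were higher, against 58.3% with TMM. Other prior counts, CPM minimums and size factors left these counts of the 10 genes within 1.5 times. Depth limits Slc1a2 in OGT-KO (90 counts, interval -5.91 to -5.29) and Lgr5 and Axin2 (164 to 352 counts per library).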
